A study of Homo sapiens with 8 samples.

Results

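The genes described here encode histone modifiers and chromatin remodelers, taken by name as every row whose symbol starts with KDM, KMT, SETD, HDAC, SMARC, ARID1, ARID2, EZH or CHD followed by a digit, without a hyphen. They are 74 of the 12939 genes in the files: 22 methyltransferase genes (KMT, SETD and EZH), 16 demethylase genes (KDM), 11 deacetylase genes (HDAC), 16 SMARC and ARID genes and 9 CHD remodeler genes. Among the 22, SETD8P1 is annotated as a processed pseudogene of KMT5A, so that its reads cannot be told apart from those of KMT5A with certainty. RNA-Seq was made from cancer stem cells (CSCs) of MDA-MB-231, a human triple negative breast cancer cell line. All cells carried GFP under the Oct4a regulatory region and an RFP vector for shRNA, were sorted for the highest GFP and for RFP, and recovered overnight, after which total RNA was taken and freed of ribosomal RNA. The vectors held scramble shRNA (3 libraries), shRNA to CDH2, the adhesion protein N-cadherin (3 libraries), or shRNA to connexin 43 (Cx43), a gap junction protein (2 libraries). The question put to these genes was how their transcripts differed among the 3 shRNA groups, class by class, and how the differences stood against transcript length. One cell line was used. The methods name a single clone chosen for CDH2 knockdown and speak of replicates of sequencing, and separate cultures are not given in the sources used here, so that the p-values measure the spread between these libraries, which may be technical.

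The values are log2(CPM + 1), deposited after the authors had removed a batch effect. Read counts are not part of them, which leaves the depth unknown, and the number of libraries limits the precision. In the genes described here scramble 1 lay close to the scramble mean, at 5.52 against 5.52 in KMT2C and 6.61 against 6.62 in SETD7. The 3 scramble values of a gene are thus not 3 separate measures of its spread. Turned back, the listed genes of a library summed to between 684411 and 727083 CPM. All 6 markers of the line were high, from 6.63 to 9.81 on the log2 scale in every library. The 3 markers that the line lacks (ESR1, PGR and CDH1) and 4 of 6 markers of blood, endothelial and connective tissue cells were not among the listed genes. The authors had dropped lowly expressed genes. The other 2 were low, PECAM1 between 1.67 and 2.5 and COL1A1 between 2.5 and 4.33. The transcripts targeted by both shRNAs, CDH2 and GJA1, were not analysed here. In bulk RNA, fewer cells of a type and less RNA per cell cannot be told apart, and CPM is a share of the library and not an amount per cell.

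Histone methyltransferases place methyl groups on histone tails and demethylases take them off. Deacetylases remove acetyl groups, which mostly accompanies gene silencing, while SWI/SNF, ISWI and CHD remodelers use ATP to slide, evict or space nucleosomes. The KMT2 proteins, the largest of the methyltransferases, act on lysine 4 of histone H3 in complexes of the COMPASS type, and the KDM6 demethylases remove methyl groups from lysine 27 of H3, the mark that EZH1 and EZH2 set in Polycomb repressive complex 2. KDM6A belongs to the same complexes as KMT2C and KMT2D.

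The promoters of 4 members are shown because their transcripts differed most between both knockdowns (KMT2D, KDM6A and KDM6B) or had the lowest adjusted p in CDH2 knockdown among the long genes (CHD1). Each is the 250 bases before the most upstream RefSeq start, on GRCh38.p14, the build of hg38. KMT2D lies at chr12:49060795-49061044 on the minus strand, CHD1 at chr5:98929008-98929257 on the minus strand, KDM6A at chrX:44872938-44873187 on the plus strand, and KDM6B at chr17:7833967-7834216 on the plus strand. Capitals mark the letters searched for on both strands, the SP1 box GGGCGG, the CCAAT box and the E box CACGTG.
KMT2D: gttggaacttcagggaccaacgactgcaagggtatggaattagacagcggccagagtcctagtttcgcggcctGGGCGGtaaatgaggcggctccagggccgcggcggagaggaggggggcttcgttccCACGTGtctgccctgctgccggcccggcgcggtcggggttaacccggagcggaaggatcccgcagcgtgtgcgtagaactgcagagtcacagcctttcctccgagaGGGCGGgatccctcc
CHD1: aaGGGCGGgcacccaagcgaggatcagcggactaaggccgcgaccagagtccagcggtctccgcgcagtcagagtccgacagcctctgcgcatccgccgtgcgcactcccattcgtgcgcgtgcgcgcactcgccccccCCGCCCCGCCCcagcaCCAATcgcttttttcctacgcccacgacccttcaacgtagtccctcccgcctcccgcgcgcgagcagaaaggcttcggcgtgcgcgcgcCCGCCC
KDM6A: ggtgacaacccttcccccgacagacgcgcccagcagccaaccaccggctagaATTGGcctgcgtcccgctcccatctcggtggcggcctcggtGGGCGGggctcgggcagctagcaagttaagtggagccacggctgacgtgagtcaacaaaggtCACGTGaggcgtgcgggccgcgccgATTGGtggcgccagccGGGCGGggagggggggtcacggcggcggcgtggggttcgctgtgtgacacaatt
KDM6B: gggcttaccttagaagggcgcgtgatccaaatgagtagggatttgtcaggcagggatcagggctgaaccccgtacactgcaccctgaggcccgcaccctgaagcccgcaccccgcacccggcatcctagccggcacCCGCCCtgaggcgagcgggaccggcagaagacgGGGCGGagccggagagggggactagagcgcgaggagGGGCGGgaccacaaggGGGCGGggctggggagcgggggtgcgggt
All 4 windows were rich in G and C, between 65.6% and 70.8%, against a median of 65.2% over all promoters matched. The SP1 box stood in all 4, as in 68.6% of 9550 promoters and in 45 of the 66 member promoters that matched (68.2%). The CCAAT box stood in CHD1 and KDM6A, and in 35.9% of all promoters and 30.3% of member promoters. KMT2D and KDM6A held the E box, which stood in 8.97% of all promoters and 12.1% of those of members. These matches are descriptions of the letters in this window.

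Levels were compared between genes per kb of the canonical transcript. CHD4, the ATPase of the NuRD complex, was highest at 61.2 CPM per kb (57.6 to 67.7 over the 8 libraries), and its range lay above that of every other member. An unnamed gene on the same strand shares 46.9% of the exon bases of CHD4. KDM1A, the lysine 4 demethylase LSD1, followed at 37.4 CPM per kb (35 to 40.9). SMARCA4, a SWI/SNF ATPase, had 33.6 CPM per kb (30.0 to 37.4) and HDAC3 30.4 CPM per kb (28.4 to 33.4), and the ranges of these neighbours overlapped. SETD3, which methylates actin, was the highest methyltransferase gene at 21.3 CPM per kb, and EZH2 stood at 15.9 CPM per kb (14.4 to 17.3). At the low end lay KDM7A with 1.0 CPM per kb, SETD6 with 1.27 and SETDB2 with 1.45.

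**Figure D1:**
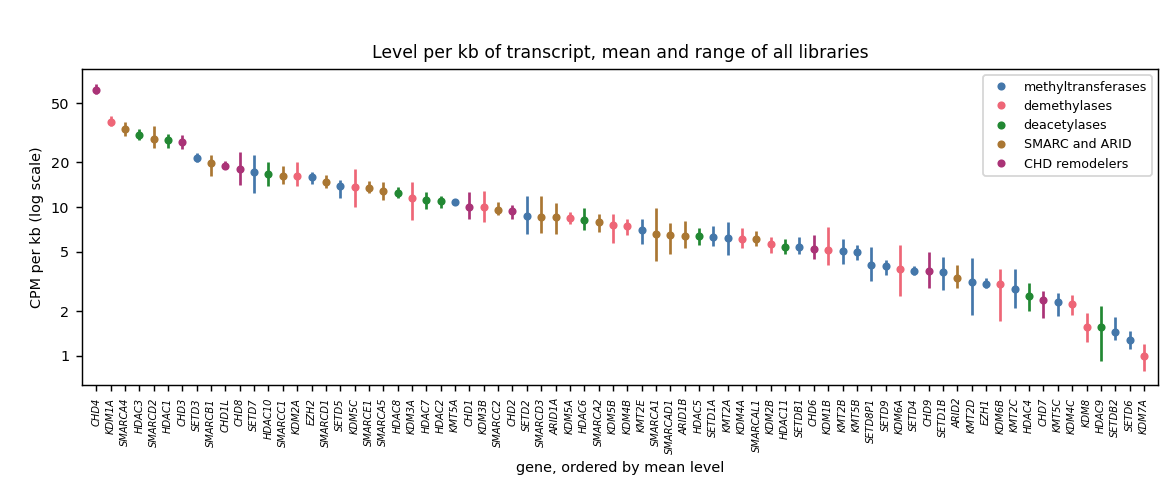
Level of each member in CPM per kb of canonical transcript (log scale), with points for the mean and lines for the range over all 8 libraries, ordered by the mean and coloured by class. The levels run from 61.2 CPM per kb for CHD4 to 1.0 for KDM7A, and the lines of KDM6B, KMT2D, HDAC9 and SMARCA1 are among the longest.

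In CDH2 knockdown, 6 members rose and 2 fell. Those that rose were KMT2A and KMT2D (lysine 4 methyltransferases), CHD1 and CHD8 (remodelers), ARID1B (a DNA-binding SWI/SNF subunit) and KDM8 (a JmjC protein with hydroxylase activity). HDAC5, a class IIa deacetylase, and SMARCA1, an ISWI ATPase, fell. Calls are adjusted p under 0.05 in limma, fitted to all 8 libraries with the replicate number as a block. Over all genes, 7.29% were called higher and 6.98% lower, against 6 and 2 of 74 here. The members thus were not called more often than the background, but their changes leaned upward. Of 74, 54 lay above 0 (73.0%) against 51.0% of all genes, with a median log2 change of 0.14 against 0.01. Their median transcript is 5.73 kb against 3.24 kb. After the correction on transcript length described further on, 41 of 74 lay above 0 (55.4%), against 50.3%.

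KMT2D (hg38 chr12:49018975-49060794) had log2 values of 5.92, 5.90 and 5.96 with scramble and 6.31, 6.56 and 6.38 with CDH2 shRNA. Its log2 change was 0.49 ± 0.11 (SE, adjusted p = 0.0409), a fold of 1.4. KMT2A (chr11:118436456-118526832) went from 6.59, 6.55 and 6.64 to 6.95, 7.06 and 6.93, a log2 change of 0.39 ± 0.08 (adjusted p = 0.0374). Neither gene's libraries overlapped between the groups. On its own strand, KMT2A shares 18.3% of its exon bases with an unnamed gene. CHD8 (chr14:21385194-21456126), a CHD protein linked to the control of beta-catenin targets, had 7.0, 6.9 and 7.11 with scramble and 7.46, 7.65 and 7.40 with CDH2 shRNA, with a log2 change of 0.50 ± 0.11 (adjusted p = 0.0398). CHD1 (chr5:98853985-98929007), which reads methylated lysine 4, had 6.15, 6.10 and 6.20 against 6.59, 6.71 and 6.57, with a log2 change of 0.47 ± 0.08 (adjusted p = 0.0291). The lowest CDH2 shRNA library lay above the highest scramble library for both. ARID1B (chr6:156776020-157210779) was at 5.89, 5.79 and 5.99 and at 6.31, 6.40 and 6.20, with a log2 change of 0.41 ± 0.10 (adjusted p = 0.0467).

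KDM8 (chr16:27203508-27221768) was the only short gene among those that rose, with a transcript of 2.43 kb where the other 5 had 8.14 to 20.6 kb. It was also among the lowest members, at 2.03, 2.06 and 2.01 with scramble and 2.46, 2.48 and 2.52 with CDH2 shRNA, a log2 change of 0.45 ± 0.07 (adjusted p = 0.025). An opposite-strand gene covers 14.5% of its exon bases. HDAC5 (chr17:44076746-44123702) had 5.31, 5.31 and 5.29 with scramble and 5.00, 4.93 and 4.98 with CDH2 shRNA, and its log2 change was -0.33 ± 0.07 (adjusted p = 0.0411). G6PC3 on the opposite strand covers 24.0% of the exon bases of HDAC5, and whether the reads were counted by strand is not given in the sources used here. SMARCA1 (chrX:129446501-129523500) had 5.15, 4.99 and 5.33 against 4.51, 4.79 and 4.39, with a log2 change of -0.60 ± 0.15 (adjusted p = 0.0499). Its groups did not overlap, and its call lies at the threshold.

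**Figure D2:**
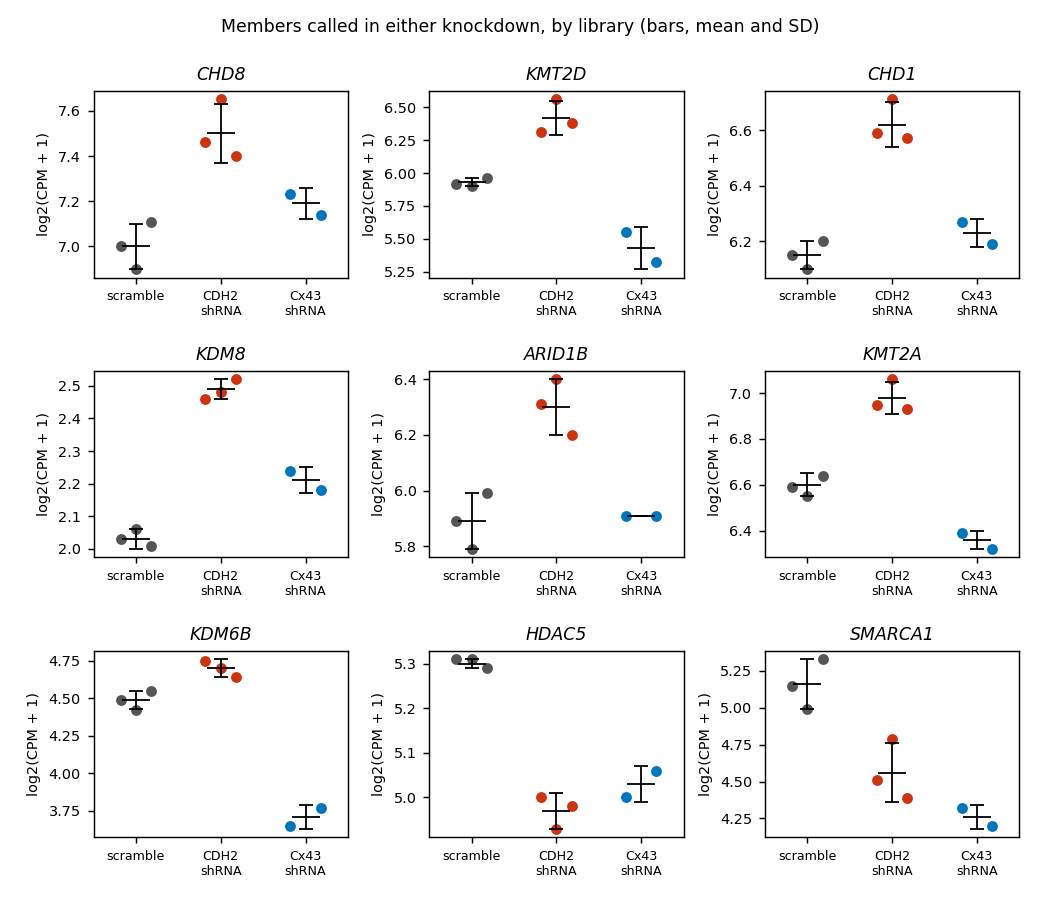
Log2(CPM + 1) of the 9 members called in either knockdown, with a point for each library and bars for the mean and SD of each group. In all 9 panels the scramble and CDH2 shRNA points do not overlap, and KDM6B stands apart for its low Cx43 shRNA points of 3.65 and 3.77.

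The 8 calls were not stable against the choice of libraries and, for some, of the scale. ARID1B was not called after quantile normalization (adjusted p = 0.0586), and ARID1B (adjusted p = 0.0517) and SMARCA1 (adjusted p = 0.0544) were not called in limma with a pseudocount of 0.1. With scramble 1, CDH2 shRNA 1, CDH2 shRNA 2 or either Cx43 shRNA library left out, 0 of 74 members were called, while over all genes 10, 0, 0, 0 and 0 were. At an unadjusted p under 0.05 in limma, these fits held 10, 15, 19, 20 and 20 members, or 13.5%, 20.3%, 25.7%, 27.0% and 27.0%, against 17.1%, 22.7%, 26.8%, 32.6% and 32.6% of all genes. Without scramble 2 there were 4 called (CHD1, KDM8, KMT2D and SMARCA1), 5.41% against 12.1% of all genes, and without replicate 3 of either group 26, of which 22 were higher, 35.1% against 41.0%. A fit of only the scramble and CDH2 shRNA libraries gave 0 members and 0 genes, with 20 and 4217 at an unadjusted p under 0.05 in limma, and the fit without the replicate block gave 32 members, 25 higher and 7 lower, which is 43.2% against 43.3% of all genes. Without a test, 34 of 74 members had every CDH2 shRNA library above every scramble library and 9 had every library below, against 27.1% and 24.8% of all genes. Scramble 1 lay close to the scramble mean in the members, so that the scramble range rests mostly on scramble 2 and scramble 3.

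Class by class, the median log2 change in CDH2 knockdown was 0.23 for demethylases, 0.19 for SMARC and ARID genes, 0.11 for CHD genes, 0.09 for methyltransferases and 0.06 for deacetylases, against 0.01 over all genes. Within a class, the pairs of libraries with the same replicate number also differed. For demethylases the median difference was 0.20, 0.43 and -0.04 in pairs 1, 2 and 3. For SMARC and ARID genes it was 0.16, 0.28 and 0.07, for CHD genes 0.04, 0.23 and 0.07, for methyltransferases 0.10, 0.16 and 0.08, and for deacetylases 0.03, 0.01 and -0.03. The deacetylases were the most even class, with 6 of 11 above 0.

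Among methyltransferases, 18 of 22 lay above 0 and 2 were called. KMT2B (log2 change 0.30 ± 0.09, adjusted p = 0.0681) and KMT2C (0.32 ± 0.13, adjusted p = 0.139) stood on the side of KMT2A and KMT2D without passing the test. KMT2E, a KMT2 protein without known methyltransferase activity, stood on the other side at -0.25 ± 0.10 (adjusted p = 0.117). Just outside the threshold, the pseudogene SETD8P1 had 0.42 ± 0.11 (adjusted p = 0.0524), where its parent gene KMT5A had 0.07 ± 0.07. The lysine 36 methyltransferase SETD2 had 0.46 ± 0.14 (adjusted p = 0.0812), and KMT5C, a lysine 20 methyltransferase of H4, had the lowest log2 change of the class, -0.29 ± 0.08 (adjusted p = 0.0626). EZH1 and EZH2 had log2 changes of 0.02 ± 0.08 and 0.05 ± 0.09, and SETDB1, a lysine 9 methyltransferase, had 0.18 ± 0.09.

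Of 16 demethylases, 12 lay above 0. KDM6A came closest to the threshold after KDM8, with 4.46, 4.35 and 4.6 under scramble and 4.88, 5.13 and 4.82 under CDH2 shRNA, a log2 change of 0.48 ± 0.13 (adjusted p = 0.0582). KDM1A, the most abundant of the class, had 0.01 ± 0.09, while its paralog KDM1B had 0.46 ± 0.15 (adjusted p = 0.0845). KDM5A and KDM5B, which demethylate lysine 4, had -0.18 ± 0.08 and -0.02 ± 0.12. Their paralog KDM5C had 0.25 ± 0.12, and none of the 3 passed the test.

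Of the class I deacetylases, HDAC1 and HDAC2, the enzymes of the NuRD and SIN3 complexes, had 0.09 ± 0.08 and 0.18 ± 0.07, HDAC3, the enzyme of the NCOR complexes, had -0.07 ± 0.08, and HDAC8 had -0.14 ± 0.08. In class IIa, the paralogs of HDAC5 lay on the other side of 0, with HDAC4 at 0.31 ± 0.12 and HDAC7 at 0.14 ± 0.12, neither past the test. Below 0 stood HDAC10, which acts on polyamines, at -0.28 ± 0.09 (adjusted p = 0.0841) and HDAC11 at -0.26 ± 0.08 (adjusted p = 0.0675). MAPK12 shares 55.8% of the exon bases of HDAC10 on the same strand.

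Of the SWI/SNF genes, all 3 ARID subunits lay above 0. ARID1A had 0.30 ± 0.09 (adjusted p = 0.0689) and ARID2 0.20 ± 0.12 beside ARID1B. Both SWI/SNF ATPases stood close, SMARCA4 at 0.15 ± 0.10 and SMARCA2 at 0.17 ± 0.11, and the 7 core subunits from SMARCB1 to SMARCE1 ranged from -0.22 to 0.23 with a median of -0.05. SMARCB1 was the lowest of these, at -0.22 ± 0.11. DERL3 on the opposite strand covers 17.7% of the exon bases of SMARCB1, and an unnamed gene on the same strand shares 18.9% of those of SMARCE1. The ISWI paralog of SMARCA1, SMARCA5, had 0.20 ± 0.09 (adjusted p = 0.175). Among CHD genes, CHD9 had 0.42 ± 0.14 (adjusted p = 0.0918), CHD7 0.08 ± 0.12 and CHD4 0.06 ± 0.10, while CHD3 was lowest at -0.18 ± 0.10.

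**Figure D3:**
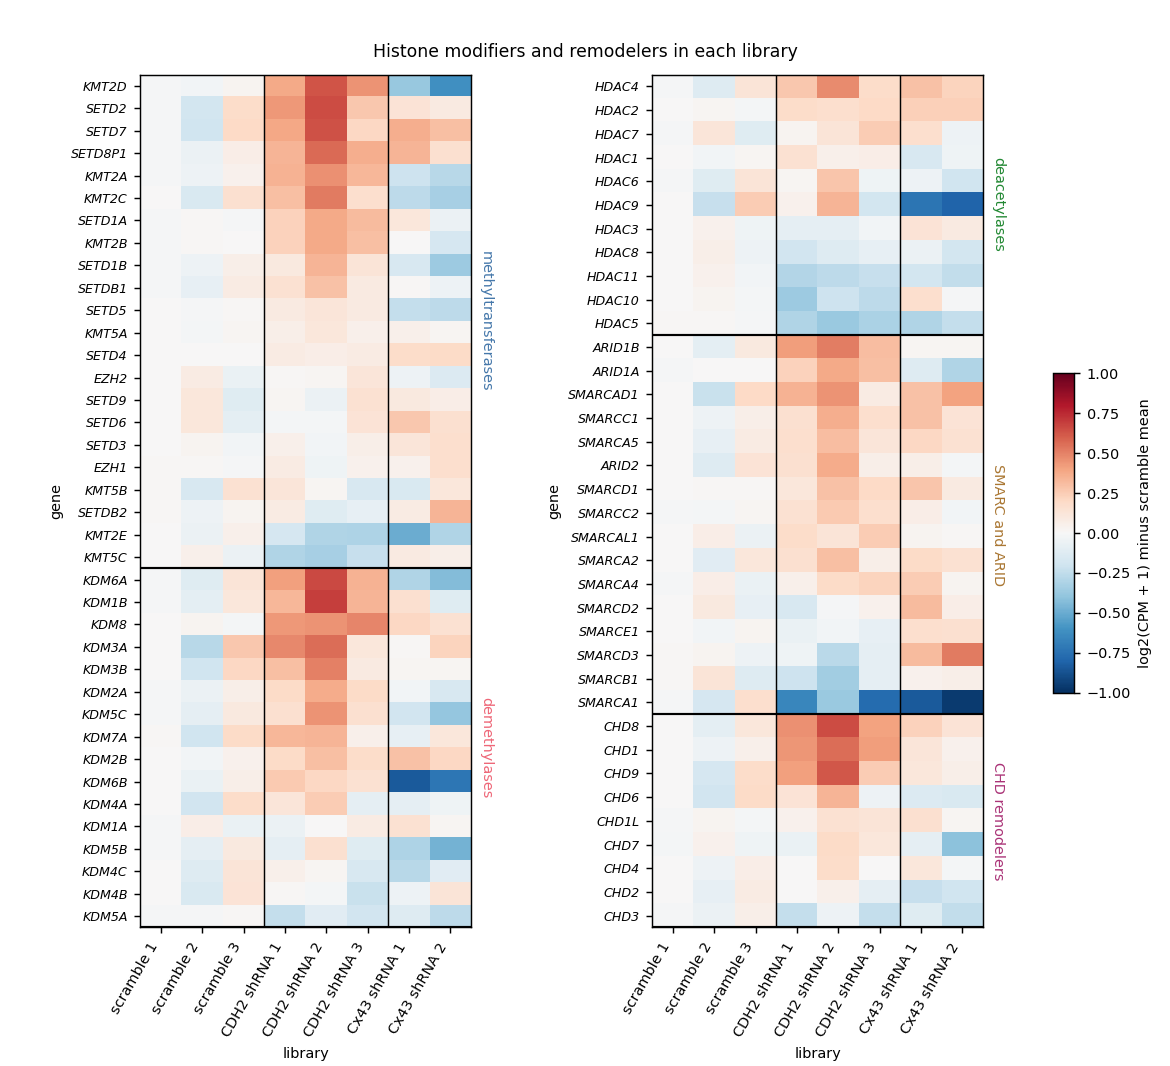
Difference of each library from the scramble mean on the log2(CPM + 1) scale for all 74 members, grouped by class and ordered by the CDH2 shRNA change. CDH2 shRNA 2 is the reddest column, and SMARCA1, KDM6B and HDAC9 are the bluest rows under Cx43 shRNA. The median difference of CDH2 shRNA 2 from scramble 2, and not from the scramble mean drawn here, was 0.26.

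In Cx43 knockdown, 1 member was called. KDM6B (chr17:7834217-7854796), a lysine 27 demethylase induced by stimuli in many cells, had 4.49, 4.42 and 4.55 with scramble and 3.65 and 3.77 with Cx43 shRNA. Its log2 change was -0.78 ± 0.10 (adjusted p = 0.0375), a fold of 0.583. The CDH2 shRNA libraries stood at 4.75, 4.70 and 4.64, above every scramble library, with a log2 change of 0.21 ± 0.09 (adjusted p = 0.138). Over all genes, 0.417% were called higher and 0.788% lower in Cx43 knockdown, against 0 and 1 of 74 here. KDM6B was called again without scramble 2 and without replicate 3 of either group, but in no fit that left out scramble 1, CDH2 shRNA 1, CDH2 shRNA 2 or a Cx43 shRNA library, where its log2 change lay between -0.87 and -0.69. It was also not called when genes with low values were left out, a fit in which 4 of 9704 genes passed. A fit of only the scramble and Cx43 shRNA libraries called 9 members, KDM6B, SMARCA1, HDAC9 and KMT2D among them, against 21.7% of all genes (12.2% of members). The fit without the replicate block called 16, 21.6% against 24.3%.

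SMARCA1 and HDAC9 had log2 changes of a like size without passing the test. SMARCA1 stood at 4.32 and 4.2 with Cx43 shRNA, below the 3 scramble and the 3 CDH2 shRNA libraries, with a log2 change of -0.90 ± 0.17 (adjusted p = 0.0735). HDAC9, a class IIa deacetylase, had 4.15, 3.92 and 4.40 with scramble and 3.42 and 3.35 with Cx43 shRNA, a log2 change of -0.77 ± 0.22 (adjusted p = 0.134). With CDH2 shRNA it was at 4.19, 4.49 and 3.97, which overlapped the scramble range. On the other side, the SWI/SNF subunit SMARCD3 had 4.06, 4.08 and 4.0 against 4.37 and 4.57, a log2 change of 0.42 ± 0.12 (adjusted p = 0.141). Genes on the opposite strand, CHPF2 among them, cover 28.4% of the exon bases of SMARCD3. In all, 22 members had both Cx43 shRNA libraries above every scramble library and 21 had both below, against 31.4% and 21.4% of all genes.

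The class medians in Cx43 knockdown were 0.15 for SMARC and ARID genes, 0.04 for methyltransferases and for CHD genes, -0.03 for demethylases and -0.10 for deacetylases, against 0.04 over all genes. Over all genes 57.6% lay above 0. SMARC and ARID genes did in 14 of 16 cases, but in 9 of 16 after quantile normalization, where the median of CHD genes was -0.03. After the length correction described further on, 9 of 16 SMARC and ARID genes lay above 0 (56.2%), against 50.7% of all genes. SMARCA1 and ARID1A (-0.21 ± 0.10, adjusted p = 0.296) were the exceptions among the values as fitted. The 7 core SWI/SNF subunits ranged from 0.02 to 0.42, and 5 of 7 lay above 0 after quantile normalization. All 5 KMT2 genes lay below 0, between -0.49 for KMT2D and -0.08 for KMT2B, and none passed the test. They lay below 0 under quantile normalization and median centring too. KMT2D was at 5.55 and 5.32 (log2 change -0.49 ± 0.13, adjusted p = 0.116). The 3 KDM5 genes also lay below 0, with KDM5B at -0.39 ± 0.14 (adjusted p = 0.19) and KDM5A at -0.19 ± 0.10. SETD7, which methylates non-histone proteins as well as lysine 4, had the highest log2 change of its class at 0.33 ± 0.19, KDM2B was at 0.25 ± 0.09, HDAC4 at 0.26 ± 0.14 and HDAC2 at 0.24 ± 0.08. In the CHD class the values ran from -0.24 for CHD7 to 0.18 for CHD8.

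Both knockdowns were then compared with each other, which uses no scramble library directly. No member was called, and 0.0% of all genes were. At an unadjusted p under 0.05 in limma there were 23 of 74 members and 2591 of 12939 genes. The largest differences were in KDM6B, 0.99 ± 0.10 higher with CDH2 shRNA (adjusted p = 0.115), KMT2D, 0.98 ± 0.13 (adjusted p = 0.115), KDM6A, 0.84 ± 0.15 (adjusted p = 0.124), and HDAC9, 0.83 ± 0.22 (adjusted p = 0.155). KDM6A had 4.17 and 4.04 with Cx43 shRNA. KMT2A, KMT2C and KMT2D, KDM6A and KDM6B each had every CDH2 shRNA library above every Cx43 shRNA library. That was so for 34 of 74 members, with 12 of 74 the other way round, against 21.8% and 29.1% of all genes. All 9 CHD genes had a difference above 0, with a median of 0.29, and 13 of 16 demethylases did, with a median of 0.27. Over all genes 45.2% lay above 0, with a median of -0.03. The difference between the knockdowns ran with transcript length, with a Spearman correlation of 0.56 over members (Pearson r = 0.56) and 0.49 over all genes (r = 0.45). After the correction on transcript length described further on, 7 of 9 CHD genes lay above 0 with a median of 0.07, and 12 of 16 demethylases with a median of 0.17. The corrected differences were 0.87 for KDM6B, 0.75 for KDM6A, 0.65 for KMT2D and 0.63 for HDAC9, and 0.33 for KMT2A and 0.32 for KMT2C, which as fitted had 0.63 and 0.62. Deacetylases (median -0.02) and SMARC and ARID genes (0.02) stood near the median of all genes as fitted. Calls depended on the fit, with 22 members without the replicate block (29.7%, against 21.5% of all genes) and 6 with only both knockdowns fitted (8.11% against 4.32%), which were HDAC9, KDM6A, KDM6B, KMT2A, KMT2C and KMT2D. There were 9 without scramble 2 (12.2% against 6.69%) and 20 without replicate 3 of either group (27.0% against 16.5%), since replicate 3 then holds 1 library and drops out.

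Transcript length moved with these changes. The members are long, with a median canonical transcript of 5.73 kb against 3.24 kb over the 12173 genes with a length, and 28.4% of them reach 8 kb against 8.51%. CHD genes were the longest class (median 8.47 kb) and deacetylases the shortest (4.12 kb), while the KMT2 genes ran from 7.78 to 20.6 kb. In CDH2 knockdown the median log2 change of members was higher in each longer bin, from -0.07 under 2 kb (5 members) to 0.05 at 2 to 4 kb (15), 0.15 at 4 to 6 kb (20), 0.20 at 6 to 8 kb (13) and 0.30 at 8 kb and over (21). Over all genes the same bins had medians of -0.20, -0.01, 0.14, 0.20 and 0.25. The Spearman correlation of log2 change with transcript length was 0.39 over 74 members (Pearson r = 0.35) and 0.49 over 12173 genes (r = 0.45). Over members it was 0.22 with summed exons and 0.21 with gene span as the length, and over all genes 0.37 and 0.34. It fell to 0.25 over members without CDH2 shRNA 2 and to 0.26 without scramble 2. The genes share libraries and are not independent, so no p is given. Of the 6 members that rose, 5 lie in the longest bin, where 5 of 21 members were called higher (23.8%) against 14.4% of all genes in that bin.

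The length relation was not in every pair of libraries. In pairs 1 and 2 of CDH2 shRNA and scramble, the Spearman correlation was 0.36 and 0.5 over members and 0.51 and 0.61 over all genes. In pair 3 it was 0.0 over members and 0.04 over all genes. In that pair KMT2D was higher by 0.42, CHD1 by 0.37, KMT2A by 0.29, CHD8 by 0.28, ARID1B by 0.21 and KDM8 by 0.51, and HDAC5 was lower by 0.31 and SMARCA1 lower by 0.94. Pair 3 is part of the fit that called these 8, so that their direction in it is no separate evidence. The part of RNA quality or library preparation in the relation was not tested.

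In Cx43 knockdown the members ran against the trend of all genes. Their medians were 0.11, 0.08, 0.04, 0.02 and -0.14 from the shortest to the longest bin, where all genes had -0.01, 0.05, 0.08, 0.10 and 0.03. The Spearman correlation was -0.34 over members (r = -0.34) and 0.12 over all genes (r = 0.09). In pairs 1 and 2, the Spearman correlation was -0.33 and -0.13 over members and 0.1 and 0.31 over all genes. Among the 21 longest members, 12 lay at or below 0, among them KMT2D, KMT2A, KMT2C, KDM5A, KDM5B, HDAC9 and ARID1A.

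**Figure D4:**
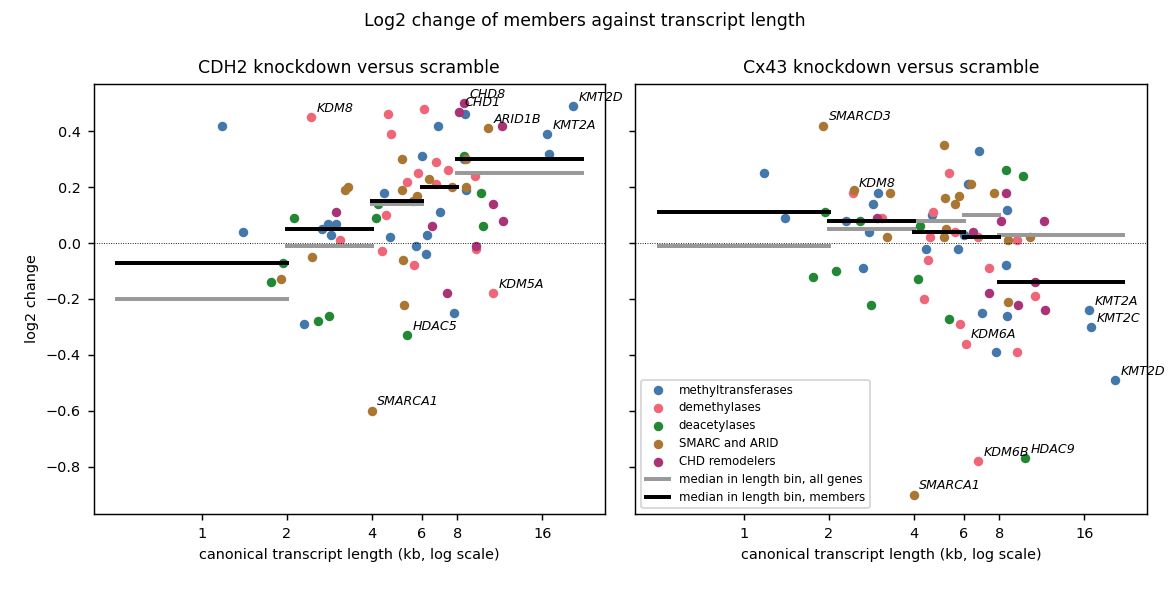
Log2 change of each member against canonical transcript length (kb, log scale) in CDH2 knockdown (left) and Cx43 knockdown (right), coloured by class, with bars for the median of each length bin over members (black) and over all genes (grey). The black bars climb from -0.07 to 0.30 on the left beside grey bars from -0.20 to 0.25, and on the right they fall to -0.14 at 8 kb and over while the grey bar stands at 0.03.

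A fit was made after the trend on transcript length over all genes had been subtracted in each library, which also takes away any difference that runs with length for another reason. The median log2 change of members in CDH2 knockdown went from 0.14 to 0.03, and class medians to 0.07 for methyltransferases, 0.03 for demethylases, -0.01 for deacetylases, 0.00 for SMARC and ARID genes and -0.10 for CHD genes. CHD8 (0.27, adjusted p = 0.0397), KDM8 (0.51, adjusted p = 0.0152) and the pseudogene SETD8P1 (0.63, adjusted p = 0.043) were called higher, against 7.49% of all genes. KMT2A (0.11, adjusted p = 0.297), KMT2D (0.20, adjusted p = 0.13), ARID1B (0.16, adjusted p = 0.109) and CHD1 (0.25, adjusted p = 0.0511) were not. Called lower were HDAC5 (-0.48), SMARCA1 (-0.68), CHD3 (-0.38), HDAC11 (-0.25), KDM5A (-0.43) and KMT2E (-0.47), against 8.27% of all genes. With gene span in place of transcript length, a choice made after the values had been seen, 15 members were called, KMT2A, KMT2D, CHD1 and ARID1B among them, which is 20.3% against 17.4% of all genes.

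After the same correction, 4 members were called lower in Cx43 knockdown and none higher, against 3.02% and 1.45% of all genes. These were KDM6B (-0.86, adjusted p = 0.0223), SMARCA1 (-0.98, adjusted p = 0.0315), HDAC9 (-0.81, adjusted p = 0.0409) and KDM5B (-0.44, adjusted p = 0.0497). KMT2D had -0.44 (adjusted p = 0.0593). Thus HDAC5 and SMARCA1 in CDH2 knockdown and KDM6B in Cx43 knockdown were called lower with and without the correction, and CHD8 and KDM8 were called higher with and without it.

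**Figure D5:**
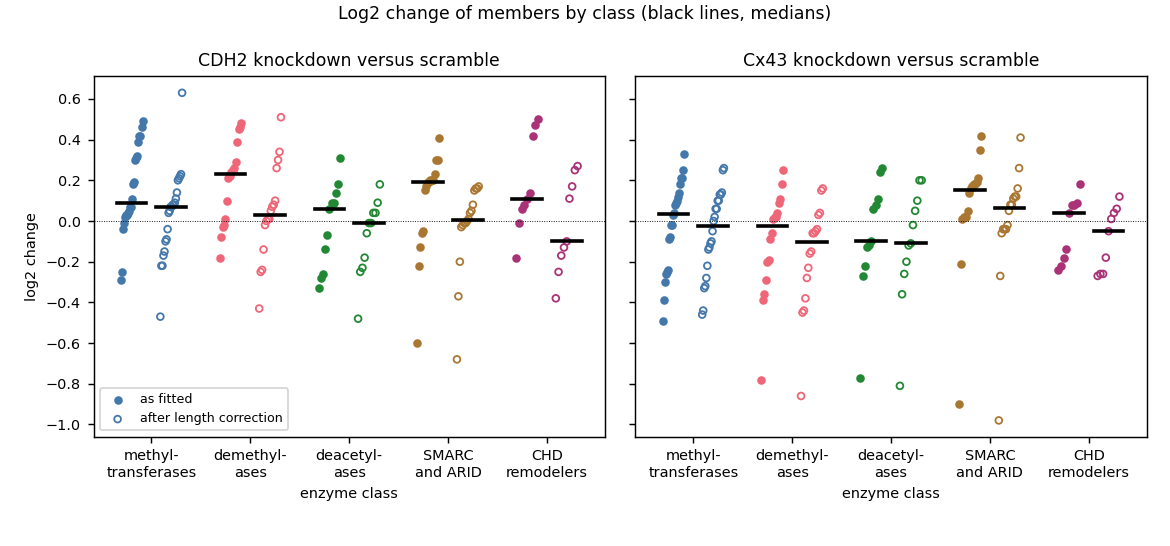
Log2 change of each member by class in CDH2 knockdown (left) and Cx43 knockdown (right), as fitted (filled) and after the correction on transcript length (open), with black lines for class medians. In CDH2 knockdown the median of demethylases moves from 0.23 to 0.03 and that of CHD genes from 0.11 to -0.10.

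Other genes of the same pathways, 105 of 108 listed by complex or activity, gave 10 called higher and 3 lower in CDH2 knockdown and 0 in Cx43 knockdown. In CDH2 knockdown that is 9.52% and 2.86%, against 7.29% and 6.98% of all genes. Among acetyltransferases 3 of 13 were called higher, EP300 (0.66 ± 0.15, adjusted p = 0.0417), its paralog CREBBP (0.41 ± 0.10, adjusted p = 0.0446) and KAT6A (0.66 ± 0.14, adjusted p = 0.0379). Of 21 other methyltransferases NSD2 (0.46 ± 0.10), DOT1L (0.48 ± 0.10) and SMYD4 (0.38 ± 0.08) were called higher. SIRT1, an NAD-dependent deacetylase, was the 1 of 6 sirtuins that rose (0.65 ± 0.11, adjusted p = 0.0256). The remodeler ATPases SRCAP (0.94 ± 0.22) and HELLS (0.52 ± 0.11) and the COMPASS partner PAXIP1 (0.45 ± 0.08) also rose. PHF1, a Polycomb partner, fell by 0.53 on the log2 scale, from 5.04 ± 0.00 to 4.51 ± 0.03 (SD, n = 3), and DPF3 and RSF1 fell by 0.38 and 0.31. Of 15 NuRD and corepressor partners, 14 other SWI/SNF subunits and 6 other demethylases, none was called higher, though 11, 9 and 4 of them lay above 0. After the length correction EP300, KAT6A, SIRT1, PAXIP1, SRCAP and HELLS were still called higher and PHF1, DPF3 and RSF1 lower, while CREBBP, NSD2, DOT1L and SMYD4 were not called. With genes called only after the correction, 1 other SWI/SNF subunit called higher among them, the lists then held 10 called higher and 5 lower. Over all genes 7.49% and 8.27% were called. In Cx43 knockdown 1 list gene was called lower after the correction, against 3.02% of all genes.

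Summed over the 74 members, the share of the listed CPM was 0.571% to 0.626% in scramble, 0.627% to 0.69% in CDH2 shRNA and 0.562% to 0.582% in Cx43 shRNA libraries. CHD4 and other abundant members carry most weight in this sum, and it is given without a test.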

How the data were processed

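The 8 RNA-Seq libraries of sorted MDA-MB-231 CSCs were grouped by the shRNA in their labels. According to the methods, the authors aligned single reads of 75 bases to hg38 with STAR (version 2.6.1 in the submitters' processing notes) in Partek Flow, quantified genes with its expectation-maximization algorithm, removed a sample of low quality, normalized to log CPM + 1, removed a batch effect among replicates of sequencing and dropped lowly expressed genes. On the log2(CPM + 1) scale, with a pseudocount of 1, the authors deposited 12939 genes per file, and 1 further line that names no gene was not used. Depth per library is unknown, so that no interval that needs it is given. Expectation-maximization shares reads among paralogs and overlapping genes, which can move values between them.

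The members and the lists of other pathway genes were chosen with earlier results of these data known. Changes were fitted with limma 3.58.1 in R 4.3.3 (lmFit, eBayes) to all 8 libraries with group and replicate number as a block, and two-sided p-values were adjusted (Benjamini-Hochberg) over all genes. Libraries with the same replicate number share a naming style in the headers of the files, and their deviations from the group means sum to at most 1e-04 in every gene, which is where the pairing comes from. With the block there are 3 residual degrees of freedom and 2.84 from limma's prior, but the residuals vary in 2 directions. The 3 thus overstate what the residuals hold, and p-values near the threshold may be too small. The fit was tested on simulated data with known changes. Their noise was independent between libraries, so that test cannot show whether these p-values are too small. Lengths are those of canonical transcripts in GENCODE v44 on hg38, matched by symbol or RefSeq synonym for 12173 genes (94.1%). The length correction subtracts a lowess trend (span 0.3) on log2 length in each library.

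Genes named are the members called in either knockdown, the largest rise and fall of each class in each knockdown, the highest level per kb of each class, 19 well-known members with their paralogs, and the called genes of the pathway lists. As alternatives, fits were made with quantile normalization, no replicate block, median centring, a filter keeping 75% of genes by mean, a pseudocount of 0.1, a mean-variance trend, only the groups compared, the fold thresholds of the methods (1.66 for CDH2, 1.5 otherwise), the length correction, gene span in its place (added after the values were seen), other lengths for the relation, and leaving out each library in turn. Promoter sequences are from RefSeq. Figures were drawn with matplotlib 3.10.9 in Python 3.11.15.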

Additional observations from a re-analysis of the deposited data

Results flagged for a closer look

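In 12 members every library of CDH2 shRNA and every library of Cx43 shRNA lay on opposite sides of the scramble range, which is 16.2% against 4.78% of all 12939 genes. CDH2 shRNA was the higher in 10 of them (13.5% against 1.9%) and Cx43 shRNA in 2 (2.7% against 2.88%). Both comparisons use the same scramble libraries, so the direct difference between the knockdowns is given, which in limma did not pass the adjusted threshold for any of them. With CDH2 shRNA above and Cx43 shRNA below, the log2 differences were 0.99 for KDM6B, 0.98 for KMT2D and 0.63 for KMT2A (adjusted p = 0.115 for each of the 3), 0.84 for KDM6A and 0.52 for ARID1A (adjusted p = 0.124 for both). They were 0.62 for KMT2C (adjusted p = 0.151), 0.55 for KDM5C (adjusted p = 0.157), 0.45 for SETD1B (adjusted p = 0.166), 0.36 for SETD5 (adjusted p = 0.141) and 0.19 for HDAC1 (adjusted p = 0.326). The other way round stood KMT5C with -0.37 (adjusted p = 0.151) and SMARCE1 with -0.22 (adjusted p = 0.232). The longest of them, KMT2D, KMT2C and KMT2A, have transcripts of 20.6, 16.9 and 16.6 kb, while those of HDAC1 and KMT5C have 2.12 and 2.29 kb. Among all genes of 8 kb and over, 83.4% had a difference between the knockdowns above 0, against 45.2% of all genes. Of the members 28.4% reach 8 kb, against 8.51%. The shares of 16.2% and 13.5% were not set against genes of like length. After the correction on transcript length the differences were 0.87 for KDM6B, 0.75 for KDM6A, 0.65 for KMT2D, 0.47 for KDM5C, 0.35 for ARID1A, 0.33 for KMT2A, 0.32 for KMT2C, 0.29 for HDAC1, 0.28 for SETD1B, 0.24 for SETD5 and -0.28 for KMT5C and SMARCE1, so that those of KMT2D, KMT2A, KMT2C, SETD1B, SETD5 and ARID1A shrank about 1.5 times or more, and none of the 12 was called. Groups of 3 or fewer libraries were not searched for outlying libraries.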

How the results depend on the processing

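The number of called members moved most with the replicate block and the libraries. The fit with no replicate block called 32, 16 and 22 members in CDH2 knockdown, Cx43 knockdown and between both (43.2%, 21.6% and 29.7%, against 43.3%, 24.3% and 21.5% of all genes), and only the groups compared 0, 9 and 6 (0.0%, 12.2% and 8.11%, against 0.0%, 21.7% and 4.32%). Gene span correction called 15 and 3 members in CDH2 and Cx43 knockdown (20.3% and 4.05%, against 17.4% and 3.42% of all genes). Transcript length correction called 4 in Cx43 knockdown (5.41% against 4.47%) and the filter 0 (0.0% against 0.0412%). The fold threshold of the methods left 0 in CDH2 knockdown, for which the share over all genes is not given here. Leaving out 1 scramble or CDH2 shRNA library gave 0 to 26, 0 to 6 and 0 to 20 members. The highest counts, without replicate 3 of either group, were 35.1%, 8.11% and 27.0%, against 41.0%, 16.5% and 16.5% of all genes. The deposited values already have no mean deviation left within a replicate number, and their residuals vary in 2 directions. The fit without the block counts 5 residual degrees of freedom and the main fit 3, more than the residuals hold. Adjusted p-values near the threshold may therefore be too small in both. Fits on fewer libraries have fewer degrees of freedom still.

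Of the class medians, that of methyltransferases moved to 0.18 in CDH2 knockdown under the filter. Gene span correction gave deacetylases -0.02 and SMARC and ARID genes 0.06, and transcript length correction gave -0.01, 0.00 and, for CHD genes, -0.10. In Cx43 knockdown methyltransferases moved to 0.00 under quantile normalization, 0.02 under median centring, -0.02 under the filter, -0.03 under transcript length correction and -0.01 under gene span correction. Demethylases moved to -0.08 under the filter, 0.04 in only the groups compared, -0.11 under transcript length correction and -0.09 under gene span correction. Deacetylases moved to -0.15, -0.06 and -0.16 under quantile normalization, only the groups compared and gene span correction. SMARC and ARID genes moved to 0.08 and 0.07, and CHD genes to -0.03 and -0.05, under quantile normalization and transcript length correction, and CHD genes to -0.02 under gene span correction. In CDH2 knockdown gene span correction also gave demethylases 0.11 and CHD genes 0.00. Leaving out 1 library gave 0.14 to 0.30 for demethylases and 0.12 to 0.22 for SMARC and ARID genes, lowest in both without CDH2 shRNA 2 (0.14 and 0.12), and -0.07 to 0.06 for deacetylases and -0.01 to 0.16 for CHD genes in CDH2 knockdown. In Cx43 knockdown it gave 0.00 to 0.05 for methyltransferases, -0.19 to 0.04 for demethylases, -0.11 to -0.01 for deacetylases, 0.03 to 0.18 for SMARC and ARID genes and -0.09 to 0.11 for CHD genes. The Spearman correlation of members on length ran from 0.25 to 0.47 in CDH2 knockdown and from -0.49 to -0.21 in Cx43 knockdown, and with summed exons and gene span it was 0.22 and 0.21, and -0.31 and -0.20.

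Some log2 changes turned sign without a call. Over all 74 members, 17 turned under transcript length correction in CDH2 knockdown, ARID2 (0.20 to -0.03), SMARCA5 (0.20 to -0.01), HDAC2 (0.18 to -0.06) and CHD7 (0.08 to -0.17) among them, and 13 in Cx43 knockdown, none over 0.06 in size as fitted. Gene span correction turned 9 and 13, and quantile normalization 2 and 10. Among the genes followed through every alternative, in CDH2 knockdown these were CHD4 (-0.13), SETD1B (-0.04), SETD5 (-0.09), SMARCA4 (-0.01) and KDM1A (0.00) under transcript length correction, EZH2 (-0.07), KDM1A (-0.09) and SETD5 (-0.02) under gene span correction, and KDM1A (-0.03) under quantile normalization. In Cx43 knockdown these were ARID1B (-0.02, 0.00 and -0.04) and CHD4 (-0.05, -0.02 and -0.03) under transcript length correction, gene span correction and quantile normalization. With 1 library left out, the CDH2 values ran from -0.04 to 0.12 for CHD4, -0.03 to 0.11 for EZH2 and -0.06 to 0.07 for KDM1A. The Cx43 values ran from -0.08 to 0.07 for ARID1B, -0.06 to 0.14 for CHD4, -0.01 to 0.19 for KDM1A and -0.03 to 0.30 for SMARCA4. The cause of these shifts was not tested. The 9 called members kept the sign of the change they were called for in every alternative run for them.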
